A study of Rattus norvegicus with 30 samples.

Results

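The 10 genes described here code for 7 ligands or antagonists of innate immune signaling (*Il1b*, *Il1rn*, *Il18*, *Il6*, *Tnf* and, for macrophage growth, *Csf1* and *Il34*) and for the 3 parts of the NLRP3 inflammasome (*Nlrp3*, *Pycard* and *Casp1*). They were chosen by gene name from the 32545 genes of the deposited table, in which *Tnf* stands in 2 rows, so that 11 rows were followed. RNA was sequenced from pieces of the renal cortex (Cx) and outer medulla (OM) of the right kidney of male Sprague-Dawley rats from Envigo. Rats of the LS groups ate 0.4% NaCl, and those of HS14 and HS21 had been switched to 4.0% NaCl for 14 and 21 d, with 5 libraries in each of the 6 groups and 30 in all. The labels name no transgene and no drug. The libraries hold whole tissue, so that more cells of a type and more RNA per cell cannot be told apart. Counts on genes summed to between 12748841 and 21842843 read pairs in 29 libraries and to 5408126 in the remaining library, replicate 10 of OM HS14. By the paper's mapping results, this library also had the smallest shares of mapped reads and of bases in exons. Its share of bases in introns was the largest. The tissue labels were borne out by segment markers. On LS the thick ascending limb genes *Umod* and *Slc12a1* were higher in the OM by 3.21 and 3.96 on the log2 scale, and the proximal tubule gene *Slc34a1* was lower there (log2 ratio -2.14).

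An inflammasome is a protein complex that turns an inactive cytokine precursor into its active form. The sensor NLRP3 recruits the adaptor ASC, the product of *Pycard*, which in turn gathers caspase-1, the product of *Casp1*. Caspase-1 then cleaves the precursors of IL-1β (*Il1b*) and IL-18 (*Il18*), so the mRNA of these cytokines does not by itself tell how much active cytokine is made. *Il1rn* codes for the IL-1 receptor antagonist, which occupies the IL-1 receptor without signaling. IL-6 and TNF are cytokines of activated macrophages and of many other cells, and CSF-1 and IL-34 are both ligands of the receptor CSF-1R, on which macrophages depend for survival. In the kidney *Il34* and *Il18* are known to be made also by tubular epithelium, whereas *Il1b*, *Nlrp3* and *Pycard* are known mainly from myeloid cells.

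The promoters of 4 of the genes are shown because these genes frame the results: *Il1b*, *Il1rn* and *Pycard* were raised at both HS times in the Cx, and *Il6* was near 0 in every library. Each is the 250 bases before the RefSeq start site, 5′ to 3′ on the strand of the gene, in the assembly GRCr8, which is a later build than the Rnor_6.0 build used for the counts. Capitals mark matches to one of 5 motifs that were searched on both strands. Promoters of 8 of the 10 genes were matched by symbol, without *Il34* and *Csf1*. The 4 sequences lie at chr3:137036582-137036831 (*Il1b*, minus strand), chr3:27520072-27520321 (*Il1rn*, plus strand), chr1:192033420-192033669 (*Pycard*, minus strand) and chr4:5894576-5894825 (*Il6*, minus strand).
Il1b: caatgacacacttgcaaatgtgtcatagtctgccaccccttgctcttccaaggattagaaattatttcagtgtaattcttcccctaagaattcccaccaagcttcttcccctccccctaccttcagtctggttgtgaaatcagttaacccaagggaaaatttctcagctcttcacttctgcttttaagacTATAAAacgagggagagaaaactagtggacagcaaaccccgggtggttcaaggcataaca
Il1rn: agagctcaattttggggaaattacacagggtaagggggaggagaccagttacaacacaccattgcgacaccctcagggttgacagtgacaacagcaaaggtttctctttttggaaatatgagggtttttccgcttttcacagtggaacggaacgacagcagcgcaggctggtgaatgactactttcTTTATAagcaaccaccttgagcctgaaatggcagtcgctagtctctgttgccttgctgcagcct
Pycard: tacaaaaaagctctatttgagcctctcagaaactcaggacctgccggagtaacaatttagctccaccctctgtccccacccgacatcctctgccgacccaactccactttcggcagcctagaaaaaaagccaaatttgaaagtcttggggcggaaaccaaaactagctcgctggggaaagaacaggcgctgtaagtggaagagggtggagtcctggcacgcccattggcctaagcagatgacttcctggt
Il6: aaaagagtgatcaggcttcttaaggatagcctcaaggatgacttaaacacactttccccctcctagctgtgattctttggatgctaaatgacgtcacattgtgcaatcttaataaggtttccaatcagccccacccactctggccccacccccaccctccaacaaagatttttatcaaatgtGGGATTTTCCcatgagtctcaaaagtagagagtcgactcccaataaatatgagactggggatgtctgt

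The motif TATAAA was found in the promoters of *Il1b*, *Il1rn* and *Tnf*, 3 of the 8 matched, and in 12.9% of the 33469 RefSeq promoters of the same length. In *Il1b* it lies 60 to 55 bases before the start, and in *Il1rn* it reads on the opposite strand 64 to 59 bases before the start. The NF-kB decamer was found only in *Il6* among the 8, 68 to 59 bases before the start, and in 3.54% of all promoters. GAGGAA, the core bound by ETS factors such as PU.1, was found in *Casp1*, *Nlrp3* and *Tnf*, against 23.3% of all promoters. The STAT motif TTCNNNGAA was found in *Nlrp3* and in 7.67% of all promoters, and the AP-1 motif TGANTCA in none of the 8 and in 6.34% of all promoters. No match overlapped another, and *Pycard* and *Il18* held none of the 5 motifs. These are matches of letters in one window and not shown binding sites.

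On the LS diet the genes differed widely in level. Levels of different genes are given per length, as the CPM (the count scaled to a common library size) divided by the gene length in kilobases (RPKM). In the Cx *Il34* (chr19:40855433-40904121) stood highest at 23.2 ± 1.23 RPKM (SD, n = 5). *Il18* (chr8:54993859-55016299) followed at 5.32 ± 1.08, *Casp1* (chr8:2604962-2614631) at 5.0 ± 0.41, *Pycard* (chr1:199437832-199439210) at 4.69 ± 0.63 and *Csf1* (chr2:210522375-210550560) at 4.10 ± 0.50 RPKM, and the ranges of neighbors in this order overlapped. Below these, and each separated from the next by a gap between ranges, were *Il1b* (chr3:121876263-121882726) at 1.68 ± 0.18, *Nlrp3* (chr10:45893018-45918254) at 1.16 ± 0.13 and *Il1rn* (chr3:1452644-1468614) at 0.56 ± 0.18 RPKM. *Il6* and both rows of *Tnf* were at the bottom, with at most 0.15 RPKM in any Cx LS library. Positions are those of Rnor_6.0.

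The same order held at the ends in the OM on LS, with *Il34* on top at 19.7 ± 7.79 RPKM and *Il1rn* lowest of the 8 measurable genes at 0.93 ± 0.45 RPKM. Across LS libraries *Il34* ranged from 38.9 to 44.3 CPM in the Cx and from 19.4 to 55.7 CPM in the OM. Between the tissues on LS, 1 of 8 tested genes differed at an adjusted *P* under 0.05, beside 40.9% of all genes tested. This gene was *Il18*, which was lower in the OM (log2 ratio -0.98, SE 0.21, adjusted *P* = 0.00381 by edgeR's quasi-likelihood test). Its LS values were 5.66, 3.69, 5.55, 5.22 and 6.68 CPM in the Cx and 2.89, 1.80, 2.42, 3.31 and 3.18 CPM in the OM, so that every OM library lay below every Cx library, which held for 15.7% of all genes. *Il1rn* had the next largest difference, higher in the OM by 0.73 (SE 0.37), with adjusted *P* = 0.139. Without replicate 2 of OM LS, the library of that group with the highest *Il34*, *Il34* passed as lower in the OM (-0.49, adjusted *P* = 0.0299).

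**Figure D1:**
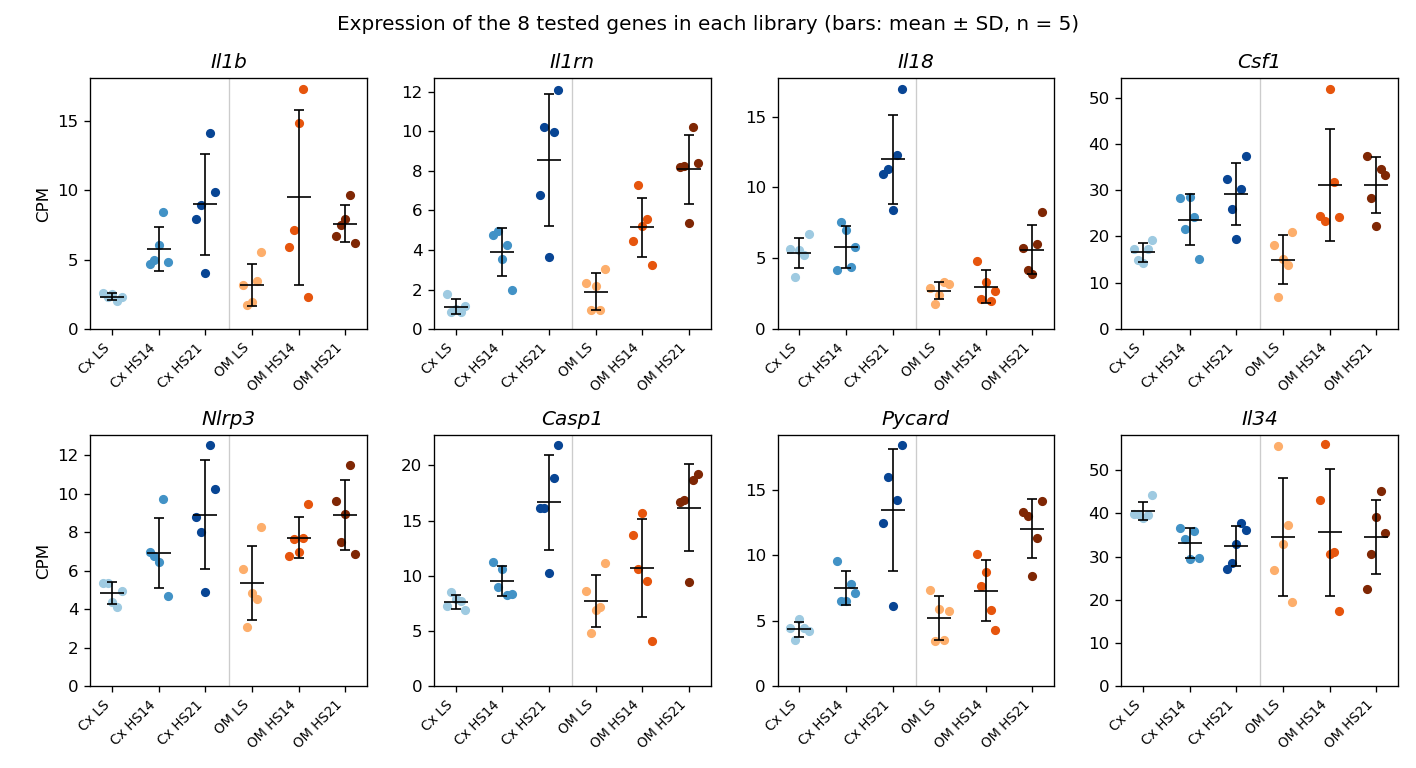
CPM (y axis, starting at 0) of the 8 genes that passed the low-count filter, in each of the 30 libraries by group (x axis). Points are libraries and bars the mean ± SD of 5. The 7 genes from *Il1b* to *Pycard* have higher means at HS21 than on LS in both tissues, whereas *Il34* is highest on LS in the Cx and spread from 17.3 to 56.2 CPM in the OM.

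After 14 d of the HS diet, *Il1rn*, *Il1b* and *Pycard* were raised in the Cx. These were 3 of the 8 tested genes, beside 1.14% of all 14181 genes raised in this comparison, and none was lowered, beside 1.18%. *Il1b* was 2.60, 2.27, 2.54, 1.99 and 2.31 CPM in the LS libraries and 4.66, 4.95, 6.04, 8.42 and 4.81 CPM in those of HS14, a 2.46-fold higher level (log2 ratio 1.30, SE 0.19, adjusted *P* = 0.00993). The groups were apart, with the highest value in replicate 9, which also had the highest summed neutrophil markers of the group (26.3 CPM). *Il1rn*, the antagonist, was 1.76, 0.86, 1.0, 0.88 and 1.16 CPM on LS and 4.73, 4.95, 3.55, 4.26 and 1.95 CPM at HS14 (3.39-fold, log2 ratio 1.76, SE 0.29, adjusted *P* = 0.0134). *Pycard*, the adaptor, rose from 4.34 ± 0.59 to 7.48 ± 1.3 CPM (log2 ratio 0.78, SE 0.15, adjusted *P* = 0.027). In all 3 genes every HS14 library was above every LS library, which held for 2.71% of all genes tested. The call of *Pycard* was lost when replicate 1, 2, 4 or 5 of Cx LS or replicate 6 or 9 of Cx HS14 was left out (log2 ratios 0.67 to 0.79, adjusted *P* = 0.0507 to 0.0816). In a single fit of all 30 libraries, which share one estimate of the spread, the calls of *Il1b* (1.30, adjusted *P* = 0.215) and *Pycard* (0.78, adjusted *P* = 0.309) were lost and that of *Il1rn* remained.

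The other inflammasome parts did not pass the test at HS14 in the Cx. *Nlrp3* was 4.83 ± 0.56 CPM on LS and 6.93 ± 1.81 CPM at HS14 (log2 ratio 0.51, SE 0.18, adjusted *P* = 0.168), and *Casp1* was 7.65 ± 0.63 and 9.50 ± 1.36 CPM (log2 ratio 0.30, SE 0.12, adjusted *P* = 0.223). *Il18* was 5.36 ± 1.08 and 5.78 ± 1.5 CPM, with a log2 ratio of 0.10 and a 95% interval from -0.35 to 0.55. The CSF-1R ligands did not pass either, with log2 ratios of 0.50 for *Csf1* (SE 0.16, adjusted *P* = 0.113) and -0.30 for *Il34* (SE 0.07, adjusted *P* = 0.0613). *Il34* nevertheless lay below every LS library in every HS14 library, at 29.5 to 36.6 CPM against 38.9 to 44.3 CPM, which held for 2.36% of all genes. The call of *Il34* and *Csf1* depended on the tool, since with DESeq2 both passed and 5 of 8 genes were called, and *Csf1* passed without replicate 10 of Cx HS14 (0.62, adjusted *P* = 0.0144).

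After 21 d, all 8 tested genes differed from LS in the Cx, 7 of them raised and *Il34* lowered. Calls were common in this comparison, with 18.9% of the 14299 genes raised and 20.5% lowered, and the median log2 ratio was 1.14 over the 8 genes and 0.00 over all genes. The largest log2 ratio was that of *Il1rn* at 2.90 (SE 0.33, adjusted *P* = 8.81e-05), a 7.49-fold higher level. Its HS21 libraries were at 6.80, 10.2, 3.66, 9.94 and 12.1 CPM, all above the highest LS library at 1.76 CPM. *Il1b* rose 3.82-fold, to 7.95, 8.97, 4.01, 14.1 and 9.86 CPM (log2 ratio 1.93, SE 0.28, adjusted *P* = 0.000336). Per length, the antagonist was below the cytokine in every Cx library. The ratio of *Il1rn* to *Il1b* RPKM within a library was 0.26 to 0.46 on LS and 0.48 to 0.84 at HS21 in the Cx, without overlap, and at HS14 it spread from 0.28 to 0.69 across both. In the OM the LS and HS21 ratios overlapped (0.19 to 0.75 and 0.46 to 0.92).

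Among the inflammasome parts, *Pycard* rose most at HS21. Its libraries were at 12.5, 16.0, 6.15, 14.3 and 18.4 CPM, against 3.53 to 5.17 CPM on LS (3.09-fold, log2 ratio 1.63, SE 0.25, adjusted *P* = 0.00047). *Casp1*, the protease of the complex, was at 7.26, 8.55, 7.86, 7.72 and 6.87 CPM on LS and at 16.2, 16.1, 10.2, 18.8 and 21.8 CPM at HS21 (log2 ratio 1.12, SE 0.17, adjusted *P* = 0.000499). Both groups of both genes were apart. *Nlrp3*, the sensor, rose less, to 8.77, 8.04, 4.91, 12.6 and 10.3 CPM from 4.12 to 5.35 CPM (log2 ratio 0.88, SE 0.22, adjusted *P* = 0.00762), and it was the only one of the 8 genes whose HS21 and LS libraries overlapped, in replicate 13. *Il18*, the second substrate of caspase-1, was at 10.9, 11.3, 8.43, 12.3 and 16.9 CPM at HS21 against 3.69 to 6.68 CPM on LS (log2 ratio 1.15, SE 0.20, adjusted *P* = 0.000929). The HS21 and LS libraries were apart in 7 of the 8 genes, 6 of them above and *Il34* below, and they were apart in one or the other direction in 26.6% of all genes.

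The ligands of CSF-1R went opposite ways in the Cx at HS21. *Csf1* was 17.3, 14.8, 14.3, 17.3 and 19.3 CPM on LS and 32.5, 26.0, 19.6, 30.3 and 37.4 CPM at HS21 (log2 ratio 0.81, SE 0.16, adjusted *P* = 0.0018). *Il34* was 39.9, 39.9, 38.9, 39.7 and 44.3 CPM on LS and 27.0, 28.4, 32.9, 37.9 and 36.1 CPM at HS21 (log2 ratio -0.32, SE 0.09, adjusted *P* = 0.0175). Neither gene overlapped between the groups. The fall of *Il34* was the smallest change and the least firm: with libraries scaled by total counts, a scaling that moves the median of all genes up by 0.13, its log2 ratio was -0.19 and did not pass, and neither did it in a single fit of all 30 libraries or without replicate 11 (-0.25, adjusted *P* = 0.0508) or 12 (-0.26, adjusted *P* = 0.0559) of Cx HS21. Markers of the nephron, where *Il34* is known to be made, moved at the same time. The summed level of 11 nephron segment markers was 17020 to 18650 CPM in Cx LS, 15970 to 17600 in Cx HS14 and 12740 to 17140 in Cx HS21, and at HS21 4 of the 11 were lowered and 5 raised. Their part in the fall of *Il34* was not tested. The ratio of *Csf1* to *Il34* RPKM within a library was 0.16 to 0.19 on LS, 0.22 to 0.42 at HS14 and 0.26 to 0.52 at HS21.

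**Figure D2:**
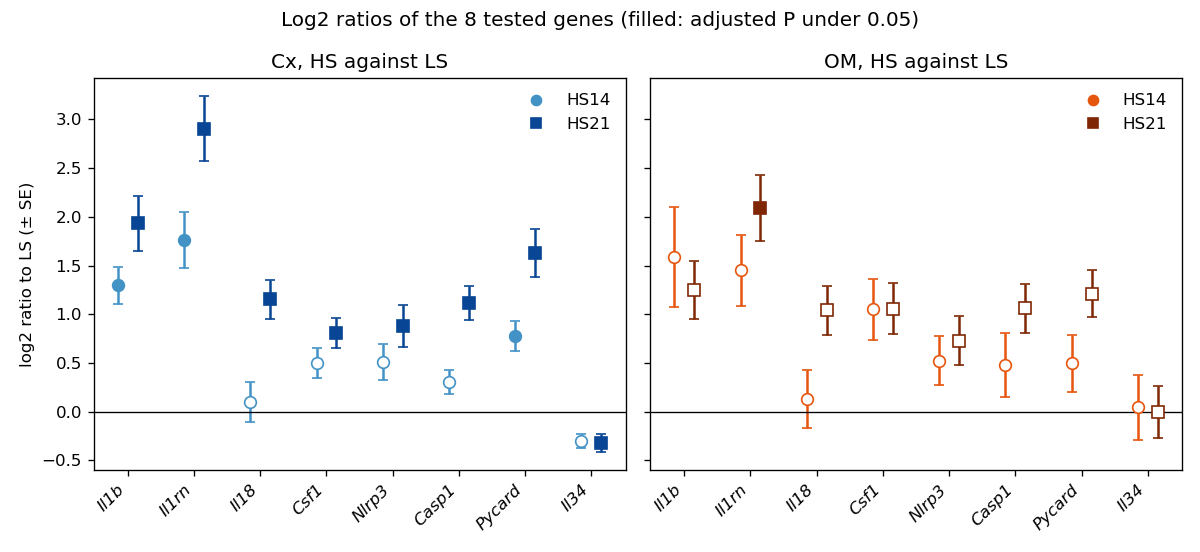
Log2 ratio to LS with its SE (y axis) for the 8 tested genes (x axis) at HS14 (circles) and HS21 (squares) in the Cx and the OM, 5 libraries in each group. Filled symbols passed at an adjusted P under 0.05: 3 genes in the Cx at HS14, 8 in the Cx at HS21, none in the OM at HS14 and *Il1rn* in the OM at HS21.

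Between 14 and 21 d in the Cx, *Il1rn*, *Il18*, *Pycard* and *Casp1* rose further, 4 of the 8 genes beside 6.5% of all genes raised, and none fell, beside 9.69%. *Il18*, which had not passed at HS14, had the clearest step, from 4.18, 7.57, 6.97, 4.41 and 5.79 CPM at HS14 to the HS21 values above (log2 ratio 1.06, SE 0.22, adjusted *P* = 0.0121). Its groups were apart, which held for 3.56% of all genes, and those of the other 3 overlapped in 1 HS21 library. The log2 ratio was 0.81 for *Casp1* (SE 0.18, adjusted *P* = 0.0155), 0.85 for *Pycard* (SE 0.25, adjusted *P* = 0.0385) and 1.14 for *Il1rn* (SE 0.32, adjusted *P* = 0.035). *Il1b* did not pass (log2 ratio 0.64, SE 0.29, adjusted *P* = 0.147), nor did *Nlrp3* (0.37), *Csf1* (0.31) and *Il34* (-0.02). In a single fit of all 30 libraries *Il1rn* and *Il18* were called, and *Casp1* (0.81, adjusted *P* = 0.0698) and *Pycard* (0.85, adjusted *P* = 0.0555) were not. With 1 library left out, the call of *Il1rn* was lost without replicate 6, 7, 8 or 9 of HS14 or replicate 12, 14 or 15 of HS21 (0.98 to 1.24, adjusted *P* = 0.0543 to 0.0845), and that of *Pycard* without replicate 7, 8, 9 or 10 of HS14 or replicate 11, 12, 14 or 15 of HS21 (0.71 to 0.88, adjusted *P* = 0.0503 to 0.0919). The HS14 and HS21 comparisons with LS share their LS libraries.

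In the OM fewer genes passed. At HS14 none of the 8 did with the pairwise edgeR fit. DESeq2 called *Il1rn* (adjusted *P* = 0.0187), and a single edgeR fit of all 30 libraries called *Il1b* (adjusted *P* = 0.0357), *Il1rn* (adjusted *P* = 0.029) and *Csf1* (adjusted *P* = 0.0337). In the pairwise comparison 1 of 14417 genes was raised (0.00694%) and 0 were lowered, while 617 and 209 genes had an unadjusted *P* under 0.05, and DESeq2 called 90 and 20 genes. The log2 ratios of *Il1b*, *Il1rn* and *Csf1* were nevertheless above 1. Those of *Nlrp3* (0.52), *Pycard* (0.50), *Casp1* (0.48), *Il18* (0.135) and *Il34* (0.04) were smaller, and their HS14 and LS libraries overlapped. *Il1b* was 3.20, 1.71, 1.97, 3.43 and 5.55 CPM on LS and 5.90, 7.11, 14.8, 17.3 and 2.32 CPM at HS14 (log2 ratio 1.59, SE 0.51, adjusted *P* = 0.597), with the lowest value in the library of low depth. The highest was in replicate 9, which also had the highest summed neutrophil markers of its group (16.6 CPM). Without the library of low depth, replicate 10, the log2 ratio of *Il1b* was 1.82, adjusted *P* = 0.321 by edgeR. Replicate 10 was the lowest of the group in *Il1b*, *Il1rn*, *Casp1* and *Pycard*, 4 of the 7 genes other than *Il34*. *Il1rn* was 2.34, 0.94, 2.16, 0.95 and 3.05 CPM on LS and 4.47, 7.29, 5.23, 5.57 and 3.22 CPM at HS14 (log2 ratio 1.45, SE 0.36, adjusted *P* = 0.427). For *Csf1* the estimate was 1.05 (SE 0.31) with adjusted *P* = 0.565. *Il1rn* and *Csf1* were apart between HS14 and LS, which held for 1.04% of all genes.

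At HS21 in the OM, *Il1rn* was raised, the 1 of 8 genes that passed, beside 0.639% of the 14555 genes raised and 0.131% lowered. Its libraries were at 8.19, 8.27, 5.36, 10.2 and 8.38 CPM, a 4.26-fold higher level than on LS (log2 ratio 2.09, SE 0.34, adjusted *P* = 0.0288). The next genes missed the threshold at log2 ratios below that of *Il1rn*. These were *Pycard* at 1.21 (SE 0.24, adjusted *P* = 0.0567), *Casp1* at 1.06 (SE 0.25, adjusted *P* = 0.0863) and *Il1b* at 1.25 (SE 0.30, adjusted *P* = 0.0904). *Il18* was at 1.04 (SE 0.25, adjusted *P* = 0.0979) and *Csf1* at 1.06 (SE 0.26, adjusted *P* = 0.108). In *Il1rn*, *Pycard*, *Il1b*, *Il18* and *Csf1* every HS21 library was above every LS library, which held for 2.44% of all genes. *Nlrp3* was at a log2 ratio of 0.73 (SE 0.25, adjusted *P* = 0.255). *Il34* was level on average, with a log2 ratio of 0.00 and a 95% interval from -0.60 to 0.60 that includes its Cx value. The number of OM calls depended on the method: DESeq2 called 6 of the 8 genes and a single fit of all 30 libraries 5, scaling by total counts called 0, and without replicate 13 of OM HS21 edgeR called 3, with *Casp1* (1.21, adjusted *P* = 0.032) and *Pycard* (1.32, adjusted *P* = 0.0354) added. The call of *Il1rn* was lost without replicate 1, 3 or 4 of OM LS or replicate 11, 12, 14 or 15 of OM HS21 (1.93 to 2.18, adjusted *P* = 0.0588 to 0.103), and without replicate 5 of OM LS *Il1b* passed (1.54, adjusted *P* = 0.0384).

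Whether the genes changed differently in the tissues was tested as the interaction of tissue and diet. None of the 8 passed at HS14 or at HS21. At HS14 0 of 15091 genes passed in all (281 and 278 had an unadjusted *P* under 0.05 in the positive and negative direction, and DESeq2 called 8 and 3), and at HS21 0.665% of 15194 genes passed. The most negative estimate at HS21 was that of *Il1rn*, -0.82 (SE 0.48, adjusted *P* = 0.425), which stands for a smaller rise in the OM, followed by *Il1b* at -0.68 (SE 0.42, adjusted *P* = 0.45). The 95% interval for *Il1rn* ran from -1.83 to 0.19. The OM was also compared between HS21 and HS14, where 0 of the 8 genes and 0 of 14499 genes passed in either direction; 337 and 210 genes had an unadjusted *P* under 0.05, and DESeq2 called 20 and 11.

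*Il6* and *Tnf* were barely present. *Il6* (chr4:3043231-3047807) had 54 read pairs in the 30 libraries together and at most 10 in a library, and it was at 0 in 12 libraries. *Tnf* is listed in the genome build as 2 nearly identical copies on chromosome 20, at 4855829 to 4858447 on the plus strand and at 5189390 to 5192000 on the minus strand, which received 68 and 28 read pairs. How a read pair was assigned between the copies is uncertain, and the split changed from library to library: in Cx HS21, replicate 13 had 11 pairs on the first copy and 0 on the second, and replicate 14 had 0 and 11. For a gene at 0 counts, 3 counts set the limit of what the depth can show, between 0.149 and 0.536 CPM per library, and this covers counting error only.

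**Figure D3:**
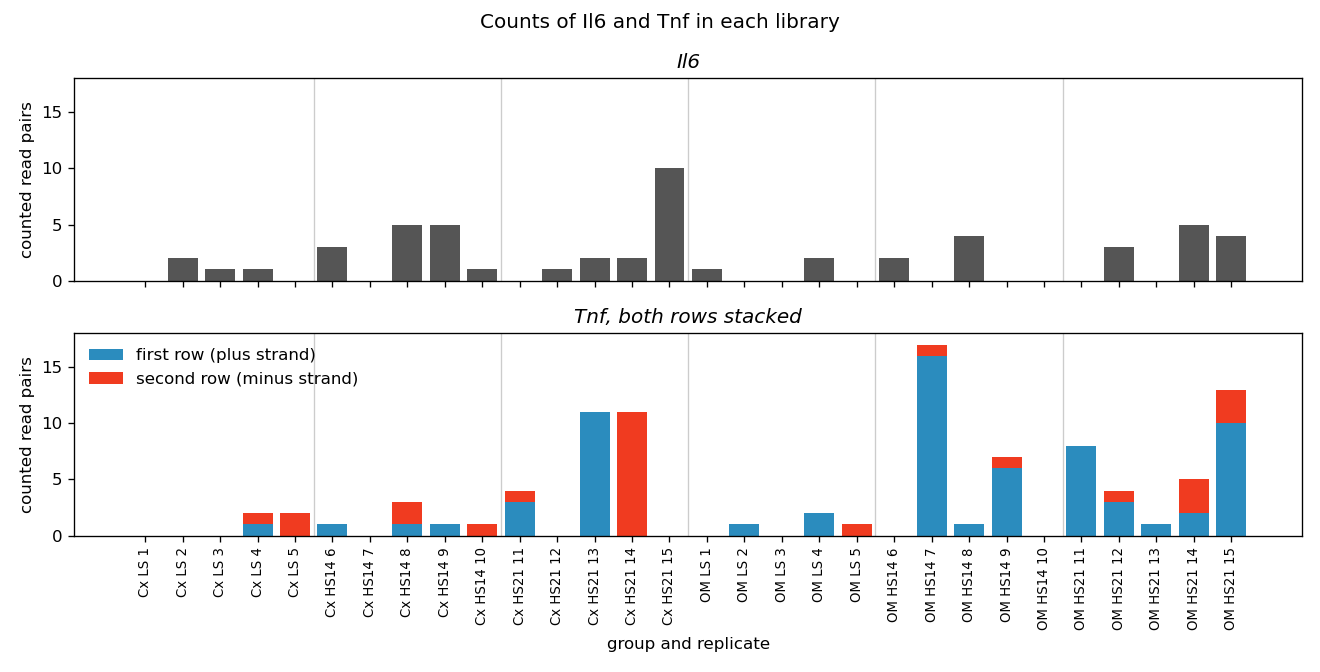
Counted read pairs (y axis) of *Il6* (upper panel) and of the 2 rows of *Tnf*, stacked (lower panel), in each of the 30 libraries (x axis, by group and replicate). No library exceeds 10 pairs for *Il6* or 17 for *Tnf*, and libraries of one rat group differ in which row of *Tnf* holds the pairs.

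Both genes were under the low-count filter in every comparison, and were compared with LS by two-sided exact permutation of the 10 libraries. The 16 *P* values of these comparisons are not adjusted. The OM at HS21 had 8, 4, 1, 5 and 13 pairs on both *Tnf* rows together, 31 in all, against 4 in all on LS, and the difference in mean log2 CPM was 1.29 (exact *P* = 0.0317). That sum was formed after the counts were seen, and without replicate 1 or 3 of OM LS or replicate 11 or 15 of OM HS21 it gave 1.02 to 1.19 with an exact *P* of 0.0556 to 0.0714. The first row alone gave 1.16 (exact *P* = 0.0397). In the Cx at HS21 the sum of 26 pairs lay in 3 libraries, 4 in replicate 11 and 11 each in replicates 13 and 14, against 4 pairs on LS (difference 0.85, exact *P* = 0.23). *Il6* had 4 pairs in Cx LS, 14 in Cx HS14 and 15 in Cx HS21, of which replicate 15 held 10, and the differences from LS were 0.55 (exact *P* = 0.214) and 0.56 (exact *P* = 0.357). In the OM it had 3, 6 and 12 pairs (HS21 against LS 0.61, exact *P* = 0.206). Differences of *Il6* between diets were not detectable at this depth.

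The receptors and partners of these genes were followed from a fixed list. For IL-1, the signaling receptor *Il1r1* and its coreceptor *Il1rap* did not pass in any comparison with LS, with Cx HS21 log2 ratios of -0.03 (SE 0.11) and 0.04 (SE 0.11). The decoy receptor *Il1r2* and the second IL-1 ligand *Il1a* were under the filter, with at most 12 and 3 read pairs in a library. For IL-18, both receptor chains rose in the Cx. *Il18rap* went from 0.88 ± 0.38 CPM on LS to 9.36 ± 5.74 CPM at HS21 (log2 ratio 3.40, SE 0.50, adjusted *P* = 0.000364) and had passed at HS14 (1.57, SE 0.34, adjusted *P* = 0.0412), and *Il18r1* rose by 1.56 at HS21 (SE 0.26, adjusted *P* = 0.000864). The binding protein *Il18bp*, which neutralizes IL-18, rose by 0.98 at HS21 (SE 0.23, adjusted *P* = 0.00603).

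The receptor of CSF-1 and IL-34, *Csf1r*, rose in the Cx from 50.2 ± 3.0 to 113 ± 28.0 CPM at HS21 (log2 ratio 1.17, SE 0.14, adjusted *P* = 0.000129), and in the OM it was 75.9 ± 35.2 CPM on LS and 167 ± 28.0 CPM at HS21 (log2 ratio 1.14, SE 0.32, adjusted *P* = 0.147). The other receptor named for IL-34, *Ptprz1*, did not pass. Of the TNF receptors, *Tnfrsf1b*, the receptor found mainly on leukocytes and endothelium, rose in the Cx at HS21 (1.48, SE 0.22, adjusted *P* = 0.000354) and in the OM at HS21 (1.45, SE 0.26, adjusted *P* = 0.0392), and the broadly expressed *Tnfrsf1a* did not pass (Cx 0.22, SE 0.11, adjusted *P* = 0.121). *Adam17*, the protease that sheds TNF, was at 0.07 (SE 0.07) in the Cx. *Il6r* was raised in the Cx at HS14 (0.48, SE 0.10, adjusted *P* = 0.0405) and at HS21 (1.03, SE 0.19, adjusted *P* = 0.00133), and its signaling partner *Il6st* did not pass at HS21 (0.29, SE 0.12, adjusted *P* = 0.073). Of the inflammasome partners, *Gsdmd*, the pore former of pyroptosis, rose at HS21 in the Cx (1.01, SE 0.16, adjusted *P* = 0.000505), as did the sensors *Aim2* (1.70, SE 0.37) and *Nlrc4* (1.02, SE 0.27) and the noncanonical caspase *Casp4* (0.52, SE 0.15), while *Nek7*, which NLRP3 needs for activation, was at -0.24 (SE 0.09, adjusted *P* = 0.0571).

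**Figure D4:**
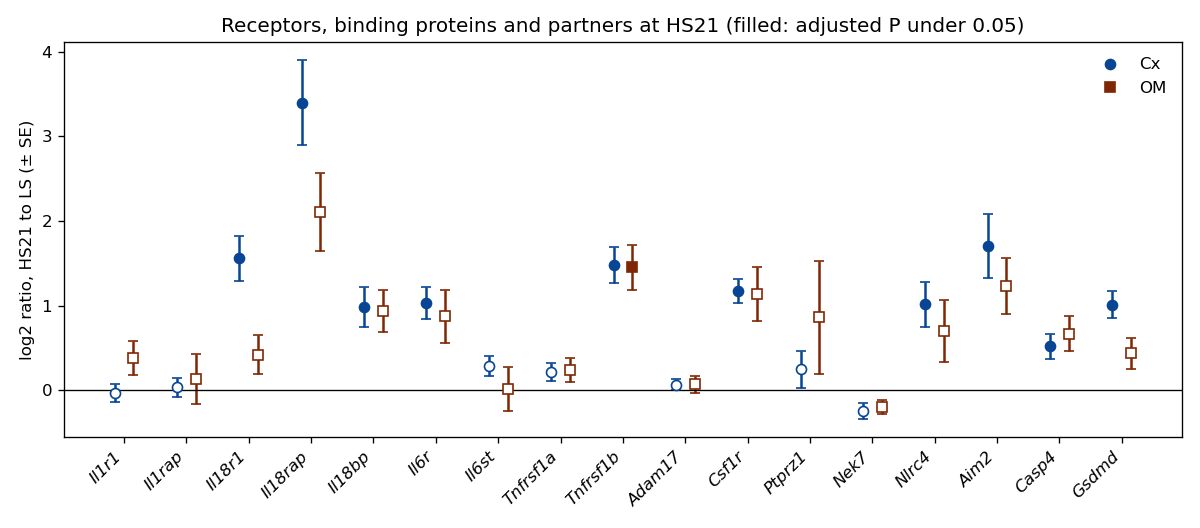
Log2 ratio of HS21 to LS with its SE (y axis) for 17 receptors, binding proteins and partners (x axis) in the Cx (circles) and OM (squares), 5 libraries in each group. Filled symbols passed at an adjusted P under 0.05; in the OM this is *Tnfrsf1b* alone, and *Il1r1*, *Il1rap*, *Il6st*, *Tnfrsf1a*, *Adam17*, *Ptprz1* and *Nek7* passed in neither tissue.

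By list, the Cx at HS21 had 9 of 16 tested inflammasome sensors and pyroptosis genes raised and 1 lowered, beside 18.9% of all genes raised and 20.5% lowered, with a median log2 ratio of 0.90 (0.00 over all genes). The 3 further genes with the largest change were *Naip6* (1.74, SE 0.38), which pairs with NLRC4, the ATP-gated channel *P2rx7* (1.06, SE 0.25) and *Casp12* (1.03, SE 0.34). In the IL-1 family list 4 of 15 genes were raised and 5 lowered, shares not far from those of all genes, and the median was 0.04. Its signaling genes *Traf6* (-0.48, SE 0.10) and *Irak2* (-0.45, SE 0.08) fell, and *Irak3*, an inhibitor of this signaling, rose (0.70, SE 0.15). In the IL-6 family and JAK-STAT list 6 of 14 genes rose and 1 fell, among them the feedback inhibitors *Socs1* (2.27, SE 0.53) and *Socs3* (1.59, SE 0.30) and the oncostatin M receptor *Osmr* (0.99, SE 0.23).

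Of the TNF receptor and NF-kB list 11 of 18 tested genes rose and 0 fell in the Cx at HS21, against the same 18.9% and 20.5% of all genes, with a median of 0.31, among them the NF-kB targets *Birc3* (1.57, SE 0.33), *Traf1* (1.56, SE 0.38) and *Nfkbia* (1.09, SE 0.26). Of the colony-stimulating factors and receptors 5 of 8 rose, among them *Csf3r* (1.93, SE 0.25), the receptor of the granulocyte factor, *Flt3* (1.63, SE 0.34) and *Csf2ra* (1.48, SE 0.20). At HS14 in the Cx the 5 lists had 0, 1, 2, 2 and 2 genes raised in this order and 0 lowered, beside 1.14% and 1.18% of all genes. In the OM at HS21 *Tnfrsf1b* was the only gene of the 5 lists that passed, beside 0.639% of all genes raised, and at HS14 none did. These lists were not tested as sets.

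Leukocyte markers other than those of B cells moved with the same diet groups. The summed level of 7 general leukocyte genes (*Ptprc*, *Coro1a*, *Laptm5*, *Cd53*, *Cd52*, *Cd48* and *Itgb2*) was 107 to 151 CPM in Cx LS, 160 to 224 in Cx HS14 and 211 to 557 in Cx HS21, and 100 to 187, 195 to 259 and 256 to 385 CPM in the OM groups. All 6 tested general markers, 12 of 12 tested macrophage markers and 8 of 8 tested T cell markers were raised in the Cx at HS21, beside 18.9% of all genes. Of the 10 T cell markers, 5 passed the low-count filter between the LS libraries of the 2 tissues. Some of the 8 could therefore pass it only through the HS21 libraries, which favored a call as raised. In the OM at HS21 4 of 6 general, 1 of 12 macrophage and 1 of 9 T cell markers were raised, beside 0.639% of all genes, and at HS14 0 of each. The summed level of 11 neutrophil markers was 0.55 to 1.47 CPM in Cx LS and lay above this range in Cx HS14 (2.02 to 26.3) and Cx HS21 (2.97 to 9.32). In the OM it was 0.26 to 0.95 CPM on LS, 1.25 to 16.6 at HS14 and 1.39 to 5.69 at HS21. *S100a9* was the only 1 of the 11 that passed the low-count filter in these comparisons, and in the OM at HS14 none did. It was raised in the Cx at HS14 (log2 ratio 4.28, SE 0.73, adjusted *P* = 0.0153) and HS21 (3.58, SE 0.37, adjusted *P* = 4.59e-05). In the OM it was raised at HS21 (3.06, SE 0.46, adjusted *P* = 0.028). With LS sums this low, it could pass the filter only through the HS libraries. The filter therefore favored a call as raised, and these log2 ratios rest on an LS level near 0. *Elane* and *Np4* were at 0 in all Cx libraries. The summed level of 6 B cell markers overlapped between Cx LS (1.03 to 2.54 CPM), Cx HS14 (0.89 to 2.02) and Cx HS21 (1.52 to 3.19). In the OM 2 of the 6 were tested against LS, and 0 were called at HS14 or HS21. The part of the leukocyte and neutrophil markers in the changes of the 8 genes was not tested.

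Set against the summed leukocyte level of the same library, the genes differed. Per 1000 CPM of these markers, *Il1rn* had a median of 8.26 CPM in Cx LS, 19.5 in Cx HS14 and 21.7 in Cx HS21, and the LS range (6.48 to 11.7) was below both HS ranges (12.2 to 22.5 and 17.3 to 31.4). In the OM its LS range of 8.78 to 16.3 was likewise below those at HS14 (16.5 to 28.1) and HS21 (20.9 to 28.2). *Il1b* had medians of 18.2, 30.1 and 23.9 in the Cx, with the LS range of 17.1 to 21.1 below that of HS14 (22.1 to 38.5) and overlapping that of HS21 (17.7 to 34.4). In the OM its LS range of 12.9 to 31.6 overlapped those of both HS groups. *Pycard* stayed near the same value, at medians of 36.9, 35.5 and 34.8, and *Casp1* was at 62.8, 52.4 and 48.4. In the Cx *Nlrp3* was lower relative to the markers at HS21 (18.4 to 30.6) than on LS (31.4 to 45.2) without overlap, and in the OM these ranges overlapped (17.9 to 34.9 and 30.7 to 44.1). *Il34* had a median of 300 on this scale in Cx LS and 87.1 in Cx HS21. The marker sum itself was higher in every HS library than in every LS library of the same tissue. A gene that rose less than the markers therefore falls on this scale, and the share of all genes apart on it was not computed.

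**Figure D5:**
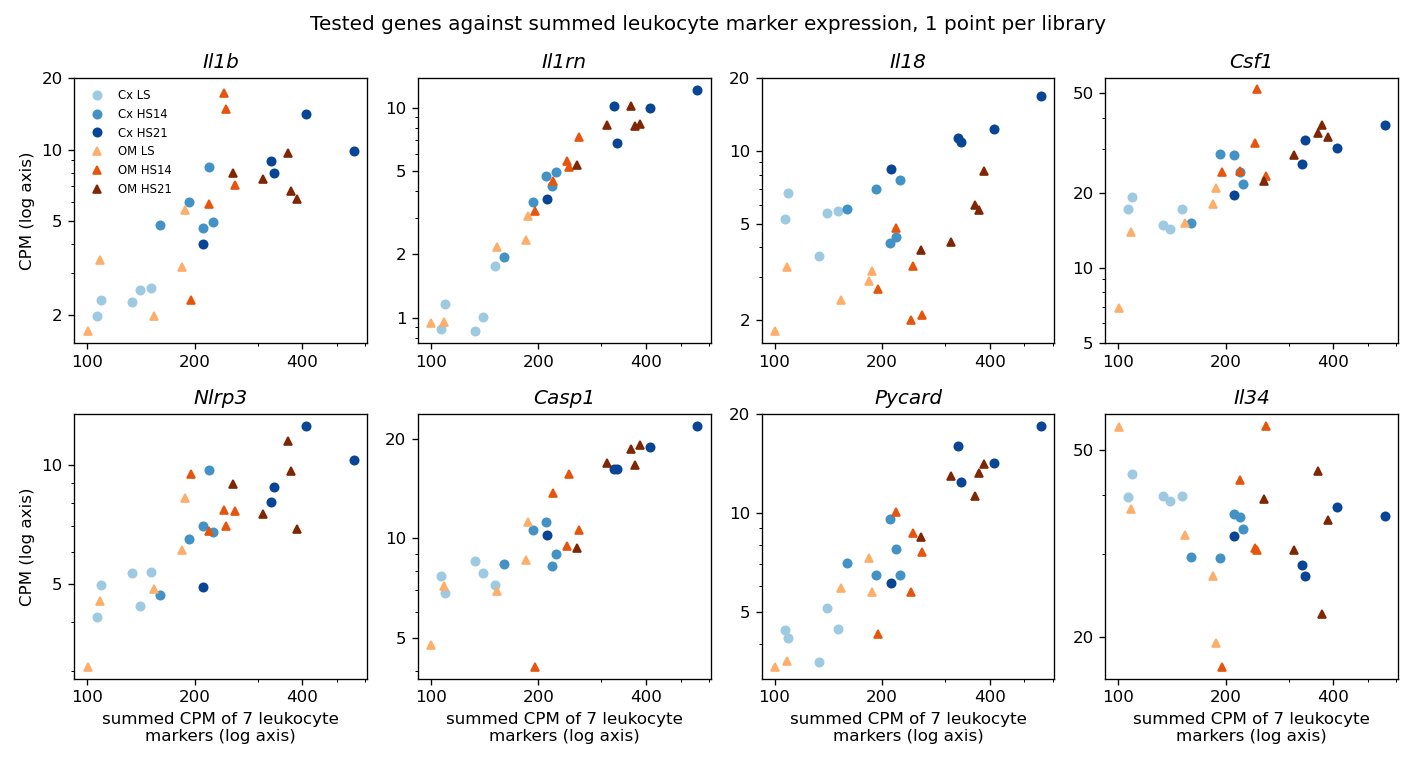
CPM of each of the 8 genes (y axis, log) against the summed CPM of 7 general leukocyte markers in the same library (x axis, log), 1 point per library, circles for the Cx and triangles for the OM. *Il1rn*, *Pycard* and *Casp1* lie along a rising band, and *Il1b*, *Nlrp3* and *Csf1* also rise with the marker level. *Il18* lies lower in the OM than in the Cx at the same marker level, and *Il34* has no rising band.

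Single libraries stood out in the same way across genes. In Cx HS21, replicate 13 had the lowest value of the group in all 7 of the raised genes, and also the lowest summed leukocyte level (211 CPM) and macrophage level (481 CPM against a median of 1310 CPM). In OM LS, replicate 2 was lowest in all 7, with 100 CPM of leukocyte markers, and in OM HS21 replicate 13 was lowest in 5 of the 7. Without Cx HS21 replicate 13 all 8 calls against LS were made, at log2 ratios of 3.09 for *Il1rn* and 2.12 for *Il1b*. Against HS14, leaving it out brought *Il1b* past the threshold (0.82, adjusted *P* = 0.0295), so that 5 genes were called.

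How alike the genes were was described by Pearson's *r* of log2 CPM over the 30 libraries, which share diet groups and may share rats between the tissues. *Il1rn* and *Pycard* (*r* = 0.90) and *Casp1* and *Pycard* (*r* = 0.89) were most alike, and after the group means were removed these values were 0.71 and 0.77. *Il18* was least like the other raised genes (0.29 to 0.60), and *Il34* was between -0.33 and -0.05 with all of them. After the group means were removed, *Il18* was at 0.125 to 0.48 with the other raised genes, and *Nlrp3* and *Casp1* were at 0.28 with each other. Among the 14070 genes that averaged at least 1 CPM, the nearest to *Il1rn* was *Cd53* (0.95) and to *Pycard* *Coro1a* (0.96), both from the leukocyte list above. The nearest to *Casp1* was *Irf1* (0.96) followed by *Psmb9* (0.96), to *Nlrp3* *Nckap1l* (0.91), to *Il1b* *Nfkbiz* (0.91), to *Csf1* *MGC112715* (0.95) followed by *Icam1* (0.92), and to *Il18* *Slc28a2* (0.86). For *Il34* they were *Spr*, *Fah* and *Ctdsp1* (0.90, 0.90 and 0.89).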

How the data were processed

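Poly(A)-selected, non-directional libraries were mapped by the authors to Ensembl Rnor_6.0 with HISAT2 2.0.5. Read pairs per gene were counted with featureCounts 1.5.0-p3 and deposited as counts without normalization. Deposited FPKM values, scaled by the authors by gene length and library size, were used only as an alternative for levels. Gene length was taken from the same table. Columns with the authors' DESeq2 group means, log2 fold changes and p-values were not used. Samples were grouped by their labels.

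From the counts, each pair of groups was fitted with edgeR 4.0.16 in R 4.3.3 (filterByExpr, TMM, quasi-likelihood F-test, no covariates). *P* was adjusted by Benjamini and Hochberg over all genes of the comparison, with a threshold of 0.05. The interaction used the 20 libraries of LS and one HS group. CPM and RPKM rest on TMM over 15494 genes, with a prior count of 2 for log2 values. Rows under the filter (*Il6* and both of *Tnf*) were compared by two-sided exact permutation. The script was tested on simulated data. Without strand, reads of a gene and an antisense partner cannot be told apart. Replicate libraries were no copies of each other, since 60 pairs differed by at least 7.29 times counting noise. Where rats were the unit is taken from the methods, and otherwise *P* measures the spread between samples.

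All 10 genes, 19 receptors and partners, and from each of 5 pathway lists the 3 further genes with the largest log2 ratio in the Cx at HS21 (adjusted *P* under 0.05, mean of at least 1 CPM) were named, with the 3 nearest genes by *r*. Of the listed symbols, *Gsdme*, *Card8* and *Flt3lg* were not analysed here. The genes and lists were chosen with earlier results of these data known. Alternatives were DESeq2 1.42.0 (its size factors and its Wald test), total-count scaling, no low-count filter, one fit of all 30 libraries, a replicate block and leaving out each library. Promoters were taken from RefSeq (GRCr8).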

Additional observations from a re-analysis of the deposited data

Results flagged for a closer look

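In 66 groups of 5 libraries (11 rows in 6 groups) the highest or lowest library was compared with its gap to the next by Dixon's ratio (critical value 0.71). For normally distributed values chance exceeds it in about 1 of 20 groups. Where all other libraries of a group are at 0, the ratio is at its maximum whatever the count. That rate therefore does not hold for rows near 0. In 5 groups 1 library stood apart on the log2 CPM scale. For *Tnf* these were the single library above 0 in replicate 4 of Cx LS on the first row (-2.26) and in replicate 5 of OM LS on the second row (-2.3), and replicate 14 of Cx HS21 on the second row (-0.23), which had 11 pairs there while replicate 11 had 1 and the other libraries of the group 0. *Il34* was highest in replicate 5 of Cx LS (5.47), and *Casp1* lowest in replicate 13 of OM HS21 (3.25).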

How the results depend on the processing

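Replicate numbers run through both tissues, but no source says that equal numbers are one rat. Of 15 pairs, 12 had a correlation of their deviations over 0.1 (-0.08 to 0.51 over 14070 genes), and 12 were best with their own number, a hint from the data and not from the design. With the replicate block the number of genes called was 1 for OM against Cx on LS and 0 for both interactions, as without it, and *Casp1* turned from 0.01 to -0.0316. Genes called in Cx HS14 against LS were 5 with DESeq2 and 1 in one fit of 30 libraries (*Il1rn*, without *Il1b* and *Pycard*), in Cx HS21 against HS14 2 in one fit (without *Casp1* and *Pycard*), in OM HS14 1 with DESeq2 and 3 in one fit, and in OM HS21 0 with total counts, 6 with DESeq2 and 5 in one fit. Leaving out each library gave 2 to 4 calls in Cx HS14, 7 to 8 in Cx HS21, 2 to 5 in Cx HS21 against HS14, 0 to 3 in OM HS21 and 1 to 2 in OM against Cx, and 0 in the others. With total counts *Il34* in Cx HS21 against HS14 became 0.0898 and *Csf1* in OM against Cx 0.12. Uncalled values near 0 changed sign with 1 library left out: *Il18* in Cx HS14 (-0.0157 to 0.19) and OM HS14 (-0.11 to 0.25), *Il34* in Cx HS21 against HS14 (-0.0879 to 0.0354), OM HS14 (-0.16 to 0.28) and OM HS21 (-0.15 to 0.23), *Csf1* (-0.29 to 0.0144), *Nlrp3* (-0.0602 to 0.27) and *Casp1* (-0.15 to 0.13) in OM against Cx, *Il6* in OM HS14 (-0.0491 to 0.36) and summed *Tnf* in Cx HS14 (-0.18 to 0.14). No called log2 ratio changed sign. The cause of these differences was not tested. Total counts moved the median of all genes by 0.13 in Cx HS21 against LS, by 0.11 in Cx HS21 against HS14, by 0.24 in OM against Cx and by -0.10 in the interaction at HS21. The size factors of DESeq2 and omission of the low-count filter changed no call of the 8 genes, and deposited FPKM moved no level by more than 1 SD.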
